A study of Mus musculus with 30 samples.

Results

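The genes described here encode the chains of collagens, laminins and integrins, the main fibres and sheets of the extracellular matrix and the receptors that hold cells to it, in rescue clones of mouse embryonic stem cells (ESCs). They were chosen by symbol alone: Col, a number, a and a number for collagens, Lama, Lamb or Lamc and a number for laminins, and Itga or Itgb with a number or one of the letters v, m, l, x and e for integrins. The symbols of 73 genes with 115 probes matched, of 18097 genes with 25697 probes on the array. A gene was tested where a probe had a detection p-value under 0.05, the array's own measure of signal above background, on at least 3 of the 30 arrays. That held for 47 of the 73 genes, as it did for 11177 genes and 15151 probes of the whole array. The brightest probe that passed stands for each gene.

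Collagens are trimers that build the fibres of connective tissue, or, as type IV collagen, the network of the basement membrane. Laminins are cross-shaped proteins of an alpha, a beta and a gamma chain that form the other network of the basement membrane, the first matrix that the mouse embryo lays down. Integrins are pairs of an alpha and a beta chain that bind laminin, collagen or proteins with the RGD motif outside the cell, and reach the actin skeleton through adaptor proteins inside it.

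All groups were rescue clones of the ESC line Ainv15 (AINV15 in the labels), which carries the transactivator that responds to doxycycline (Dox). In a rescue clone an shRNA depletes an endogenous mRNA, and Dox (1 μg/ml) switches on a copy that the shRNA does not recognise. Bub1b_R was made for a kinase of the spindle checkpoint, Chek1_R for the checkpoint kinase Chk1, Ppm1g_R for a protein phosphatase, Ppp2r1b_R for a scaffold subunit of phosphatase PP2A, and Control_R served as the control clone, with no target given in the labels. Each of the 5 clones was measured in the presence of Dox and 5 days after its withdrawal, with 3 arrays per condition. Every clone had been raised with Dox on mouse embryonic fibroblasts as feeders, which the study's methods removed by brief plating before the culture with or without Dox. The methods state that several independent clones were made for each gene, and the labels do not say whether the 3 arrays of a condition come from separate clones or cultures. The p-values therefore measure the spread between these arrays, which may be technical.

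A value below is the log2 of an array's normalized signal intensity, on which a difference of 1 is 2-fold, and errors are standard errors (SE) of the fit over all arrays unless an SD is named. A gene was called higher or lower at an adjusted p under 0.05 (limma, Benjamini-Hochberg over the 15151 probes) and a difference of at least 1.5-fold. Signals of different genes come from different probes and were not compared with each other.

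Replicate arrays correlated with r between 0.990 and 0.997, and 11733 to 13685 probes were detected per array. The dimmest detected probe had a signal of 12.9 to 20.9 on Control_R and Bub1b_R arrays and of 27.8 to 58.1 on those of the other 3 clones. The sample records of Control_R are also numbered apart from those of every other clone, Bub1b_R included. The set of arrays and the clone therefore cannot be told apart in any comparison with Control_R, whereas withdrawal of Dox was compared within a set. The targeted mRNAs did not all move as the labels imply. Ppm1g in Ppm1g_R changed by -1.25 ± 0.10 without Dox (adjusted p = 4.5e-09), whereas Bub1b in Bub1b_R moved by -0.14 ± 0.08 (adjusted p = 0.217) and Ppp2r1b in Ppp2r1b_R by 0.20 ± 0.15 (adjusted p = 0.365). Chek1 went against its label: it was detected on 3 of 3 arrays labelled as Chek1_R without Dox and on 0 of 3 with Dox, a rise of at least 1.35-fold (adjusted p = 0.00115). Its difference from Control_R was -1.07 ± 0.16 without Dox, and with Dox it was at least 3.02-fold lower. The rescue copies of Bub1b and Chek1 lacked the sequence that the shRNA targets, and whether these probes read the copy was not determined here. On the same arrays 6 of 6 primitive streak and mesoderm markers were higher without Dox, and the median change of 7 markers of ES cell identity was -0.31. The direction of every change given for the arrays labelled as Chek1_R rests on the labels.

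Col4a1, Col4a2, Col18a1, Lama1, Lamb1 and Lamc1, all chains of the basement membrane, were detected on all 30 arrays. Other chains of the basement membrane and of connective tissue did not pass. Of the 47 genes, 29 were detected on all 30 arrays and 11 on under 15. Among the chains, 19 of 36 collagens, 8 of 9 laminins and 16 of 23 integrins passed. The 26 genes that did not pass hold 22 that were detected on no array, among them Col1a2, Col5a2 and Col15a1, Itga2 and Itga4, and the leukocyte chains Itgam and Itgax. Col14a1 and Col4a6 were detected on 2 arrays each, and Col6a2 and Lamc3 on 1 each. A further 4 genes passed but share only the symbol: Col4a3bp, which encodes a ceramide carrier, and the binding proteins Itgb1bp1, Itgb1bp2 and Itgb3bp. That leaves 43 chains. Lama5 was not analysed here.

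Promoter sequence is shown for 5 collagens whose changes are described below, among them the pair that shares a promoter, chosen after their values had been seen, so that their start regions can be set side by side. RefSeq's GRCm38.p6 table held a window of 250 bases before to 50 after the start for 33 of the 47 genes, and Col1a1 was not among them. Col4a1 (chr8:11312777-11313076, minus strand) and Col4a2 (chr8:11312555-11312854, plus strand) lie head to head, and their windows share 78 bases. The others are Col5a1 (chr2:27886175-27886474, plus strand), Col9a2 (chr4:121039316-121039615, plus strand) and Col17a1 (chr19:47691993-47692292, minus strand). Each is printed 5′ to 3′ on the gene's strand, and capitals mark promoter motifs searched on both strands. The first was the GC box, with the letters GGGCGG. The second was the box named for its own letters CCAAT. The last was the core of the TATA box, searched for with the letters TATAAA.
Col4a1: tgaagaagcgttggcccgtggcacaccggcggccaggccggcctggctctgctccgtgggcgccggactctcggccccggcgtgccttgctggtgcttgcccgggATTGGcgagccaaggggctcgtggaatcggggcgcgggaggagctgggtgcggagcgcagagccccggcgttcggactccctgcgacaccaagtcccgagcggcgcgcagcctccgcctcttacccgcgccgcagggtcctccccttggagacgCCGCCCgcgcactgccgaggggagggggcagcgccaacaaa
Col4a2: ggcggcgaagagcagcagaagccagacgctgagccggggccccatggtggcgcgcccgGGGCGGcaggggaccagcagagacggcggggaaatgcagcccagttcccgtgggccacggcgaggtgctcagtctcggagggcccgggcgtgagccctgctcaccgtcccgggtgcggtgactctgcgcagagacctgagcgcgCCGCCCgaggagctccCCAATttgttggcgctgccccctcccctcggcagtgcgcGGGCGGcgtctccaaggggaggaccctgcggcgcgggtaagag
Col5a1: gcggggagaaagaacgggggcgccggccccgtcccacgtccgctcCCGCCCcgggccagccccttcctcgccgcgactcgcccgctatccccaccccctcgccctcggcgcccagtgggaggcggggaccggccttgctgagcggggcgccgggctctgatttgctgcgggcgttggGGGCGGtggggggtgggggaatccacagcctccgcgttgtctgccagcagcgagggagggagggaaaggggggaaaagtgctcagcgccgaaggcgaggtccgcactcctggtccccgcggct
Col9a2: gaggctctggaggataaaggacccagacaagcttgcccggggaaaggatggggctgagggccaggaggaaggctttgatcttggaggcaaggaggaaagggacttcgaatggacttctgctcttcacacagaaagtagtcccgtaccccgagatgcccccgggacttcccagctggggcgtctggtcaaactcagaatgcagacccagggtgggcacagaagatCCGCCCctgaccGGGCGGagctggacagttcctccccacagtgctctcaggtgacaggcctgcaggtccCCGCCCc
Col17a1: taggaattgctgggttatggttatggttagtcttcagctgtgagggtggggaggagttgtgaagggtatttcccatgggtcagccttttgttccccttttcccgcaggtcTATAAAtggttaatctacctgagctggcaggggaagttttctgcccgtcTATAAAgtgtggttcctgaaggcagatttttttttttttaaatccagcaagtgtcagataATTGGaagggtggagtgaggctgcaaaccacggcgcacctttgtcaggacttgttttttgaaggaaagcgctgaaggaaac
Col17a1, which fell in 3 clones, held 2 TATA boxes, 1 CCAAT box and 0 GC boxes in its window. The 4 other windows held 0 TATA boxes and between 1 and 3 GC boxes. A GC box was found in 35.7% of all 32851 windows of the table and in 20 of the 33 of these genes, a CCAAT box in 37.4% and in 10, and a TATA box in 13.6% and in 3. These are matches of letters and not measured binding sites.

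Withdrawal of Dox was the comparison the rescue design was made for. It changed 6 of the 47 genes in Bub1b_R, where 5.6% of all probes were called, with 3 higher (all probes 2.94%) and 3 lower (2.67%). On the arrays labelled as Chek1_R it changed 11 beside 9.27% of all probes, with 4 higher (4.49%) and 7 lower (4.77%). In Ppm1g_R it changed 4 beside 4.37%, with 3 higher (2.3%) and 1 lower (2.07%), and in Ppp2r1b_R 6 beside 4.82%, with 4 higher (2.77%) and 2 lower (2.05%). In Control_R limma called 0 beside 1.1% of all probes (0.706% higher, 0.396% lower), and 11 genes there had an unadjusted p under 0.05 (13 by a t-test on each probe). The median change of the 47 genes was 0.05 in Bub1b_R, -0.07 on the arrays labelled as Chek1_R, 0.12 in Ppm1g_R, 0.10 in Ppp2r1b_R and 0.05 in Control_R, beside medians between -0.02 and 0 over all probes. Genes were called in both directions in each of the 4 clones. In all, 17 chains were called in 1 or more clones: 3 in 3 clones (Col1a1, Col17a1 and Col23a1), 4 in 2 (Col4a1, Col6a1, Col9a2 and Itgae), 10 in 1 and 0 in all 4, where 0.515% of all probes were higher and 0.185% lower in all 4. Arrays with and without Dox did not overlap for 41.4% of all probes in Bub1b_R, 44.2% in Chek1_R, 37.8% in Ppm1g_R, 32.2% in Ppp2r1b_R and 26.2% in Control_R, so a lack of overlap in a single gene was common. The calls lay mostly among collagens, with 20 of 27, as the map of changes shows.

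**Figure D1:**
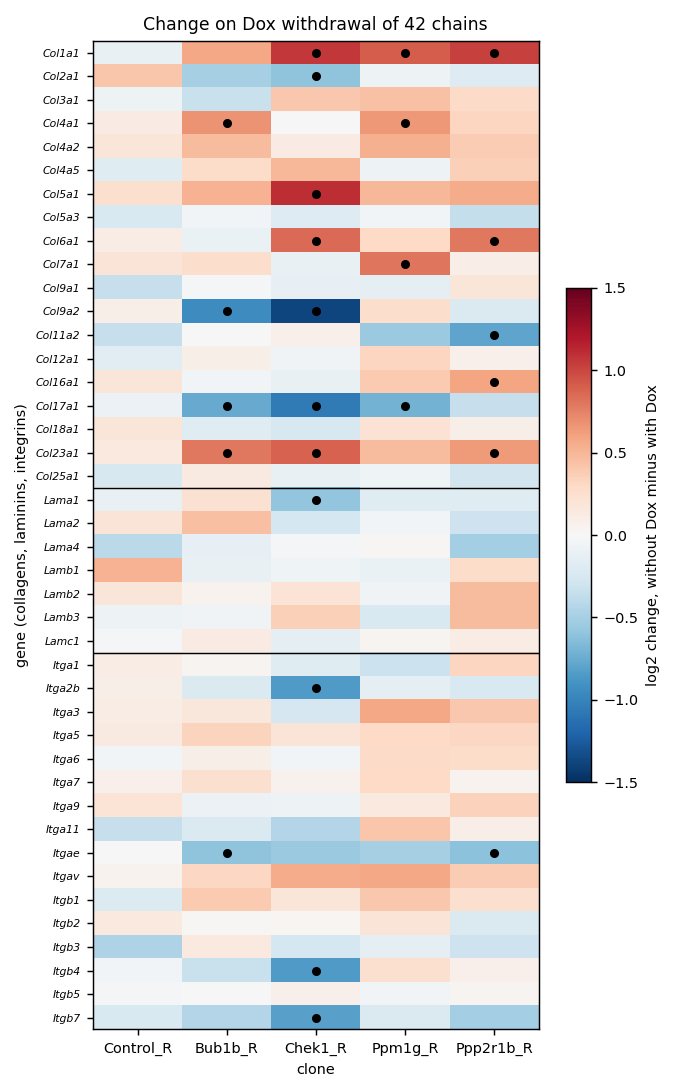
Change on Dox withdrawal of each of 42 chains (rows, in the order collagens, laminins, integrins, divided by lines) in each of the 5 clones (columns), as the log2 difference of the means of 3 arrays without and 3 with Dox; red is higher and blue lower without Dox, and a black dot marks an adjusted p under 0.05 with at least 1.5-fold. Col5a1 and Col1a1 reach 1.10 and 1.06 in the Chek1_R column, where Col9a2 reaches -1.37, and the Control_R column holds no dot.

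Col1a1, the main chain of the collagen fibres of connective tissue, rose in 3 clones. In Ppm1g_R it read 5.95, 6.18 and 5.82 with Dox and 7.05, 6.95 and 6.69 without it. In Ppp2r1b_R the arrays with Dox read 6.48, 6.55 and 5.83 and those without it 7.11, 7.45 and 7.38. On the arrays labelled as Chek1_R it read 6.87, 6.34 and 6.59 with Dox and 7.90, 7.30 and 7.77 without it. Every array without Dox lay above every array with Dox in these clones. The rises were 0.91, 1.03 and 1.06 in this order, each ± 0.21, with adjusted p between 0.000384 and 0.00262. Bub1b_R came close, with 6.84, 6.85 and 7.14 against 7.41, 7.53 and 7.64, which is 0.58 ± 0.21 (adjusted p = 0.0475) and just under 1.5-fold. Control_R showed no separation, with 6.68, 6.44 and 5.81 with Dox and 6.30, 5.86 and 6.42 without it. Against that change of -0.12, those of Ppm1g_R, Ppp2r1b_R and the arrays labelled as Chek1_R were larger by 1.03, 1.14 and 1.17 (adjusted p = 0.0248, 0.0189 and 0.00695). These differences of Col1a1 lost their call when 1 of 7 arrays was left out in Ppm1g_R (0.84 to 1.01) and 1 of 3 in Ppp2r1b_R (0.92 to 0.98). Its partner chain Col1a2 was detected on no array.

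Fibroblasts express Col1a1 strongly, so the markers of the feeder cells stand beside it. Of 12 such markers that are no matrix chains, 8 passed, and Lum, Postn, Fap and S100a4, which mark fibroblasts, did not. On withdrawal 1 of the 8 rose and 0 fell in Bub1b_R (all probes 2.94% and 2.67%). On the arrays labelled as Chek1_R 3 rose and 1 fell (4.49% and 4.77%), and in Ppm1g_R 3 rose and 1 fell (2.3% and 2.07%). In Ppp2r1b_R 2 rose and 0 fell (2.77% and 2.05%), and 0 changed in Control_R (1.1%). Dcn, a proteoglycan that decorates collagen fibres, rose in each of the 4 clones. The rise was 0.68 in Bub1b_R, at least 1.91-fold on the arrays labelled as Chek1_R, at least 1.25-fold in Ppm1g_R and at least 1.31-fold in Ppp2r1b_R, while no array of Control_R detected it. Thy1, a surface protein of fibroblasts, moved the other way, by -0.81 on the arrays labelled as Chek1_R and -0.61 in Ppm1g_R. The mean log2 signal of the 8 markers ranged from 7.38 to 7.46 with Dox and from 7.66 to 7.76 without it on the arrays labelled as Chek1_R, from 7.32 to 7.36 and from 7.55 to 7.64 in Ppm1g_R, from 7.39 to 7.49 and from 7.67 to 7.72 in Ppp2r1b_R, and from 7.53 to 7.64 and from 7.81 to 7.95 in Bub1b_R. In Control_R it ranged from 7.38 to 7.39 with Dox and from 7.20 to 7.39 without it. The part of feeder cells in these values was not tested, and in RNA from whole cultures fewer cells of a type and less RNA per cell cannot be told apart.

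Col5a1, a chain of type V collagen that starts and thins collagen fibres, moved with little spread between arrays. The arrays labelled as Chek1_R read 10.57, 10.61 and 10.68 with Dox and 11.73, 11.70 and 11.74 without it. This rise of 1.10 ± 0.05 (adjusted p = 9.75e-15) left a wide gap between the groups. In Bub1b_R, Ppm1g_R and Ppp2r1b_R the change was 0.52, 0.50 and 0.56, under 1.5-fold in each, although their arrays did not overlap either and adjusted p lay between 1.5e-08 and 8.43e-08. Control_R read 10.13, 10.15 and 10.14 with Dox and 10.39, 10.41 and 10.33 without it, a change of 0.24 ± 0.05 (adjusted p = 0.00369). The change on the arrays labelled as Chek1_R exceeded that of Control_R by 0.86 ± 0.07 (adjusted p = 2.54e-09), and the changes differed among the 4 clones (F-test, adjusted p = 1.11e-06). Its promoter window above held GC boxes and neither of the other motifs.

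The remaining fibrillar collagens moved less evenly. Col2a1, the collagen of cartilage, fell by 0.61 ± 0.12 on the arrays labelled as Chek1_R (adjusted p = 0.000512), from 7.25, 7.25 and 7.15 to 6.50, 6.49 and 6.84. It moved the opposite way in Control_R, from 6.85, 7.22 and 7.01 to 7.45, 7.60 and 7.29, which is 0.42 ± 0.12 (adjusted p = 0.0416). Neither pair of groups overlapped. Relative to Control_R its change was therefore -1.02 on the arrays labelled as Chek1_R, -0.92 in Bub1b_R and -0.61 in Ppp2r1b_R, all called. The last of these calls of Col2a1 was lost without any of 6 arrays (-0.61 to -0.45). Without replicate 1 or 2 of the arrays labelled as Chek1_R without Dox its change there was -0.55, under 1.5-fold. A second probe of Col2a1 changed on withdrawal by -0.63 on the arrays labelled as Chek1_R, -0.30 in Bub1b_R and -0.40 in Ppp2r1b_R. In Control_R that probe moved by 0.21, less than the 0.42 above, and its changes relative to Control_R are not given here. Col11a2, a minor chain of cartilage fibres, fell by 0.79 ± 0.26 in Ppp2r1b_R (adjusted p = 0.0279), from 6.66, 6.31 and 6.22 to 5.71, 5.36 and 5.74. That call was lost without Ppp2r1b_R replicate 1 with Dox (-0.66) or replicate 2 without it (-0.67). Col3a1, which accompanies Col1a1 in soft tissue, was detected on 8 of 30 arrays and was called nowhere on withdrawal, with changes between -0.33 and 0.44.

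The pair of type IV collagen chains that line every basement membrane, Col4a1 and Col4a2, had their largest changes in Bub1b_R and Ppm1g_R. Col4a1 in Bub1b_R read 10.43, 10.31 and 10.38 with Dox and 10.96, 11.07 and 11.12 without it. In Ppm1g_R it read 10.20, 10.17 and 10.02 with Dox and 10.83, 10.79 and 10.70 without it. These rises of 0.68 ± 0.06 and 0.64 ± 0.06 (adjusted p = 1.23e-08 and 4.4e-08) were called, with no overlap of the arrays. Ppp2r1b_R followed with 0.32 ± 0.06 (adjusted p = 0.00039), under 1.5-fold. The arrays labelled as Chek1_R stood out, with 9.65, 9.74 and 9.71 with Dox and 9.73, 9.64 and 9.76 without it, which overlap and differ by 0.01 ± 0.06 (adjusted p = 0.919). Control_R changed by 0.13 ± 0.06 (adjusted p = 0.22). The changes differed among the 4 clones (F-test, adjusted p = 7.35e-06).

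Col4a2, transcribed from the other side of the shared promoter, gave 9.55, 9.60 and 9.66 with Dox and 10.06, 10.06 and 10.12 without it in Bub1b_R, and 9.51, 9.53 and 9.41 against 10.06, 9.93 and 10.07 in Ppm1g_R. Its changes were 0.48 and 0.53 there, 0.38 in Ppp2r1b_R, 0.12 on the arrays labelled as Chek1_R and 0.18 in Control_R, each ± 0.06. None reached 1.5-fold, although adjusted p was 4.22e-06, 1.21e-06 and 0.000117 in the first 3, and the changes differed among the 4 clones (F-test, adjusted p = 0.00598). Of the other chains of the basement membrane, Col4a5 had its largest change on the arrays labelled as Chek1_R (0.50 ± 0.13, adjusted p = 0.00414), which exceeded that in Control_R by 0.68 (adjusted p = 0.0102). Col18a1, the source of the fragment endostatin, was called nowhere on withdrawal. Its change was -0.18 in Bub1b_R, -0.25 on the arrays labelled as Chek1_R, 0.22 in Ppm1g_R and 0.08 in Ppp2r1b_R, each ± 0.06, and it differed among the clones (F-test, adjusted p = 0.00119). The other probes of Col18a1 gave -0.13, -0.49, 0.14 and 0.18, and -0.52, -0.32, 0.05 and -0.11, in the same order and likewise without a call. The spread between its probes is thus wider than the SE of the probe used.

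**Figure D2:**
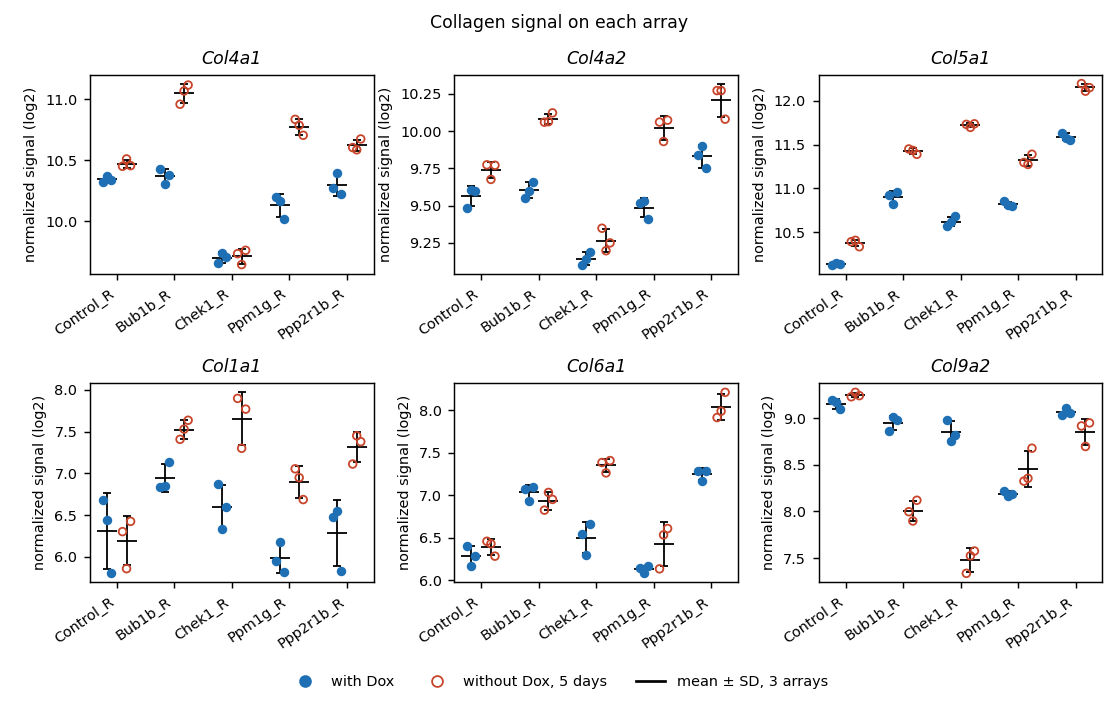
Normalized log2 signal of 6 collagen genes on every array, by clone, with Dox (filled) and after 5 days without it (open), with the mean and SD of 3 arrays; the vertical scales differ between panels and do not start at 0. Col4a1 separates by Dox in Bub1b_R and Ppm1g_R and not on the arrays labelled as Chek1_R (0.01), while Col5a1 rises most there (1.10) and Col9a2 falls most there (-1.37).

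Among the collagens that neither form fibres nor basement membrane networks, Col9a2 made the largest move. It encodes a chain of type IX collagen, which coats cartilage fibres. In Bub1b_R it read 8.87, 9.01 and 8.98 with Dox and 8.00, 7.90 and 8.12 without it. On the arrays labelled as Chek1_R it read 8.98, 8.76 and 8.82 with Dox and 7.34, 7.52 and 7.58 without it. The changes of -0.95 ± 0.09 and -1.37 ± 0.09 (adjusted p = 1.74e-08 and 8.8e-12) left no overlap between the arrays. Ppm1g_R changed by 0.26, Ppp2r1b_R by -0.21 and Control_R by 0.09, each ± 0.09, and the difference among the 4 clones passed the F-test (adjusted p = 2.36e-09). Its sister chain Col9a1 was detected on 23 of 30 arrays and called in none of the 5 clones.

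Col6a1 encodes a chain of the microfibrils of type VI collagen that sit between cells and fibres. It rose in Ppp2r1b_R, from 7.29, 7.16 and 7.28 to 7.91, 7.99 and 8.21, and on the arrays labelled as Chek1_R, from 6.54, 6.30 and 6.66 to 7.38, 7.26 and 7.41. The groups did not overlap, and the rises were 0.79 and 0.85, each ± 0.11 (adjusted p = 7.37e-06 and 9.15e-07). A second probe of Col6a1 gave 0.70 and 0.88. In Bub1b_R the change was -0.10 and the arrays overlapped, and the F-test among the clones gave an adjusted p of 0.000108. Col7a1, which anchors the epidermis to the dermis, rose in Ppm1g_R, from 7.72, 7.79 and 7.38 to 8.44, 8.50 and 8.34, or 0.80 ± 0.12 (adjusted p = 1.48e-05). Its change differed among the 4 clones (F-test, adjusted p = 0.00132) and lay between -0.11 and 0.26 elsewhere.

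Col17a1, a membrane collagen of the hemidesmosomes that fix epithelial cells to the basement membrane, fell in 3 clones. In Bub1b_R it went from 6.49, 6.49 and 6.17 to 5.30, 5.82 and 5.75, on the arrays labelled as Chek1_R from 6.74, 6.69 and 6.68 to 5.97, 5.44 and 5.53, and in Ppm1g_R from 6.67, 6.84 and 6.89 to 6.14, 6.33 and 5.81. No groups overlapped, and the changes were -0.75, -1.06 and -0.71, each ± 0.18 (adjusted p = 0.00289, 5.95e-05 and 0.00561). The call in Ppm1g_R was lost without its replicate 3 without Dox (-0.56). The arrays of Ppp2r1b_R overlapped, with -0.34 ± 0.18 (adjusted p = 0.178). The other probes of Col17a1 gave -0.65, -0.81 and -0.40, and -0.29, -0.19 and -0.13, in the order Bub1b_R, Chek1_R and Ppm1g_R. With the mean of its 3 probes the calls in Bub1b_R (-0.56) and Ppm1g_R (-0.41) were lost. Col23a1, a membrane collagen close to the detection limit, rose from 5.71, 5.74 and 5.49 to 6.44, 6.49 and 6.39 in Bub1b_R, or 0.80 ± 0.15 (adjusted p = 0.000258). With Dox it was detected on 0 of 3 arrays labelled as Chek1_R and 0 of 3 of Ppp2r1b_R, so that its rises there are at least 1.43-fold and at least 1.26-fold (adjusted p = 5.12e-05 and 0.00272), the latter lost without Ppp2r1b_R replicate 1 with Dox (0.55) or replicate 2 without it (0.54). Col16a1, which associates with small fibrils, rose by 0.59 ± 0.14 in Ppp2r1b_R (adjusted p = 0.00278), from 8.29, 8.27 and 8.43 to 8.98, 8.86 and 8.92, with no overlap. At the edge of 1.5-fold, it was lost without replicate 1 or 2 with Dox or replicate 1 without Dox (0.56 to 0.57).

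Among the laminin genes named here, only Lama1 was called on withdrawal, and only on the arrays labelled as Chek1_R, where 9.27% of all probes were called. Lama1, the alpha chain of the first laminin of the embryo, fell by 0.59 ± 0.09 on the arrays labelled as Chek1_R (adjusted p = 1.19e-05), from 10.32, 10.43 and 10.14 to 9.72, 9.58 and 9.82. The groups did not overlap, but the fall was under 1.5-fold without replicate 1 or 2 with Dox or replicate 2 without it (-0.58, -0.53 and -0.53). The changes differed among the 4 clones (F-test, adjusted p = 0.000391), with 0.23 in Bub1b_R and -0.18 in both other clones. Its partner chains Lamb1 and Lamc1 were called in none of the 5 clones. Lamb1 (Lamb1-1 on the array) changed by -0.11 in Bub1b_R, -0.07 on the arrays labelled as Chek1_R, -0.10 in Ppm1g_R and 0.27 in Ppp2r1b_R, each ± 0.18, while its largest value was 0.52 in Control_R (adjusted p = 0.0792). Lamc1, the gamma chain of most laminins, lay between -0.13 and 0.12, each ± 0.08. An adjusted p that misses the threshold does not show that these levels were equal.

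Lamb3, a beta chain of epithelial laminin, and Lamb2, a beta chain of nerve and kidney basement membranes, were named after their values had been seen. Lamb3 changed by 0.36 ± 0.10 on the arrays labelled as Chek1_R and by 0.47 ± 0.10 in Ppp2r1b_R, without a call, and differed among the clones (F-test, adjusted p = 0.00246). Lamb2 changed by 0.47 ± 0.11 in Ppp2r1b_R (adjusted p = 0.00198), likewise under 1.5-fold.

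The 16 integrin chains held 5 calls on withdrawal, each a fall. Of these, 3 come from the arrays labelled as Chek1_R and would be rises if the labels of those arrays were turned. In the order Bub1b_R, Chek1_R, Ppm1g_R and Ppp2r1b_R, 1, 3, 0 and 1 of 16 fell, beside 2.67%, 4.77%, 2.07% and 2.05% of all probes. The median change of the 16 chains was 0.03, -0.13, 0.22 and 0.09, so they did not fall as a family. Itgb4, the beta chain of the hemidesmosome integrin and here named after its values had been seen, went from 10.03, 10.02 and 10.07 to 9.23, 9.22 and 9.12 on the arrays labelled as Chek1_R. That change of -0.85 ± 0.06 (adjusted p = 4.69e-11) was many times the spread of the arrays. Bub1b_R went from 9.44, 9.42 and 9.41 to 9.06, 9.06 and 9.14, again without overlap (-0.34 ± 0.06, adjusted p = 0.000118), whereas Ppm1g_R moved by 0.24 and Ppp2r1b_R by 0.07. A second probe of Itgb4 gave -0.82 on the arrays labelled as Chek1_R and -0.47 in Bub1b_R, and -0.15 in Ppm1g_R, where the probes differ in sign. The difference among the 4 clones passed the F-test (adjusted p = 3.31e-09). The alpha chain that pairs with it, Itga6, was called in none of the 5 clones, with changes from -0.04 to 0.28, each ± 0.10.

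Itgae, the alpha chain that in lymphocytes pairs with Itgb7 and binds E-cadherin, was lower without Dox in each of the 4 clones. Bub1b_R went from 9.10, 8.96 and 8.95 to 8.43, 8.37 and 8.41, and Ppp2r1b_R from 8.84, 8.99 and 9.17 to 8.43, 8.22 and 8.50. The changes were -0.60 and -0.62, each ± 0.09 (adjusted p = 3.19e-05 and 3.54e-05), with no overlap. They were under 1.5-fold without Bub1b_R replicate 1 with Dox (-0.55), and without Ppp2r1b_R replicate 3 with Dox or replicate 2 without it (-0.53 each). With the mean of all probes of Itgae they were -0.53 and -0.45. On the arrays labelled as Chek1_R and in Ppm1g_R the change was -0.56 and -0.50, under 1.5-fold (adjusted p = 5.28e-05 and 0.000366), and the F-test among the 4 clones gave an adjusted p of 0.874. Control_R read 9.89, 9.86 and 10.02 with Dox and 9.96, 9.86 and 9.94 without it, which overlap. Itgb7 fell by 0.82 ± 0.09 on the arrays labelled as Chek1_R (adjusted p = 2.12e-07), from 7.26, 7.27 and 7.40 to 6.39, 6.57 and 6.52. Its other changes were -0.44 in Bub1b_R, -0.22 in Ppm1g_R, -0.51 in Ppp2r1b_R and -0.23 in Control_R. Of 7 leukocyte markers, Cd3e and Laptm5 passed and neither was called on withdrawal, while Ptprc, Cd14, Lyz2 and Tyrobp were among those that did not. The mean log2 signal of Cd3e and Laptm5 ranged from 8.78 to 8.96 with Dox and from 8.43 to 8.61 without it in Bub1b_R, from 8.33 to 8.73 and from 8.13 to 8.28 on the arrays labelled as Chek1_R, from 8.85 to 8.90 and from 8.64 to 9.01 in Ppm1g_R, from 8.75 to 9.12 and from 8.44 to 8.91 in Ppp2r1b_R, and from 9.17 to 9.35 and from 8.80 to 9.15 in Control_R. Its part in the values of Itgae and Itgb7 was not tested. The leukocyte beta chain Itgb2 was detected on 4 of 30 arrays.

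Itga2b, the platelet chain that binds fibrinogen, was also named after its values had been seen. It fell by 0.85 ± 0.21 on the arrays labelled as Chek1_R (adjusted p = 0.00261), from 6.45, 6.41 and 6.79 to 5.37, 5.91 and 5.83, and a second probe of Itga2b gave -0.48. The remaining values are those of receptors for laminin and RGD proteins. Itgav, the alpha chain of the vitronectin receptors, changed by 0.55 on the arrays labelled as Chek1_R, 0.58 in Ppm1g_R, 0.38 in Ppp2r1b_R and 0.31 in Bub1b_R, each ± 0.10, with 0.05 in Control_R. Itga3, a laminin receptor chain, changed by 0.58 in Ppm1g_R and 0.41 in Ppp2r1b_R, and by -0.26 on the arrays labelled as Chek1_R, each ± 0.07, and differed among the clones (F-test, adjusted p = 8.06e-06). Itga5, of the fibronectin receptor, lay between 0.20 and 0.34 in the 4 clones, and Itgb1, the partner of most of these chains, between 0.18 and 0.40. None of these reached 1.5-fold. Itga7, the laminin receptor chain of muscle, was detected on 11 of 30 arrays and called in no clone, and Itgb5, a partner of Itgav, lay between -0.04 and 0.08.

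**Figure D3:**
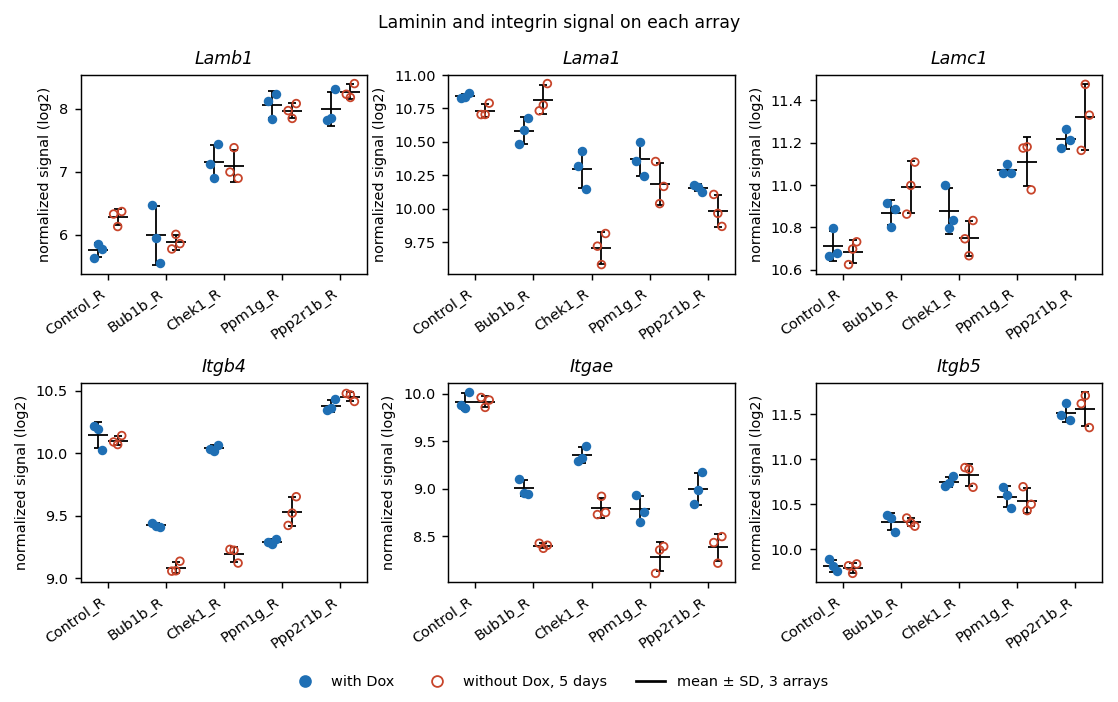
Normalized log2 signal of 3 laminin and 3 integrin genes on every array, by clone, with Dox (filled) and after 5 days without it (open), with the mean and SD of 3 arrays; the vertical scales differ between panels and do not start at 0. Lamb1 and Itgb5 differ by clone and were not called on withdrawal, with 0.52 for Lamb1 in Control_R, while Itgb4 falls on the arrays labelled as Chek1_R (-0.85), and Itgae lies highest in Control_R and lower without Dox in the 4 other clones.

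Set against the change in Control_R, 4 genes were called in Bub1b_R beside 5.15% of all probes, with 1 above it (all probes 2.7%) and 3 below (2.45%). The arrays labelled as Chek1_R had 12 called beside 8.99%, with 5 above (4.37%) and 7 below (4.62%). Ppm1g_R had 3 beside 5.27%, all above (2.73%) and 0 below (2.54%), and Ppp2r1b_R had 4 beside 3.28%, with 2 above (1.71%) and 2 below (1.57%). These comparisons share the arrays of Control_R. Col9a2 had the largest difference, -1.47 ± 0.12 on the arrays labelled as Chek1_R (adjusted p = 4.45e-09) and -1.04 ± 0.12 in Bub1b_R (adjusted p = 4.22e-06). Itga11, a receptor chain for fibrillar collagen, was called here and not on withdrawal itself, because its 0.42 in Ppm1g_R stood against -0.34 in Control_R (difference 0.76 ± 0.17, adjusted p = 0.00384). A second probe of Itga11, detected on 10 of 30 arrays, gave smaller changes of 0.22 in Ppm1g_R and -0.16 in Control_R. The change on withdrawal differed among the 4 clones for 18 of the 47 genes by the F-test, where 24% of all probes passed.

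Each clone was also set against Control_R in the same condition. Without Dox 18 of 47 were called in Bub1b_R beside 22.6% of all probes, with 10 higher (all probes 10.9%) and 8 lower (11.7%). The arrays labelled as Chek1_R had 23 called beside 28.8%, with 13 higher (14.1%) and 10 lower (14.6%). Ppm1g_R had 23 beside 33.5%, with 14 higher (16.7%) and 9 lower (16.8%), and Ppp2r1b_R had 27 beside 33.7%, with 20 higher (16.6%) and 7 lower (17.1%). With Dox, when the rescue copy is on, 12 were called in Bub1b_R beside 12.7%, with 7 higher (6.6%) and 5 lower (6.09%). The arrays labelled as Chek1_R had 9 called beside 17.6%, with 7 higher (9.75%) and 2 lower (7.81%). Ppm1g_R had 16 beside 29.1%, with 9 higher (14.8%) and 7 lower (14.3%), and Ppp2r1b_R had 21 beside 28.3%, with 16 higher (14.2%) and 5 lower (14.1%). Among these calls with Dox, Itga1, a collagen receptor chain, was detected on no array of either condition on the arrays labelled as Chek1_R and in Ppm1g_R, and no fold is given for it. In the order Bub1b_R, Chek1_R, Ppm1g_R and Ppp2r1b_R, of the calls without Dox 9 of 18, 7 of 23, 12 of 23 and 18 of 27 were also called with Dox in the same direction, as were 46.4%, 45.5%, 67.1% and 67.3% of all probes called. In 0 cases was a gene called in opposite directions with and without Dox. The median difference of the 47 genes without Dox was 0.31, 0.10, 0.30 and 0.47, where the median over all probes lay between -0.04 and -0.01. With Dox it was 0.16, 0.03, -0.01 and 0.27, where the median over all probes lay between -0.04 and -0.002. All of these comparisons share the Control_R arrays, whose sample records are numbered apart from those of all 4 clones. The level of the lowest detected signal given above moves with 3 of the 4 clones. The part of either was not tested.

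**Figure D4:**
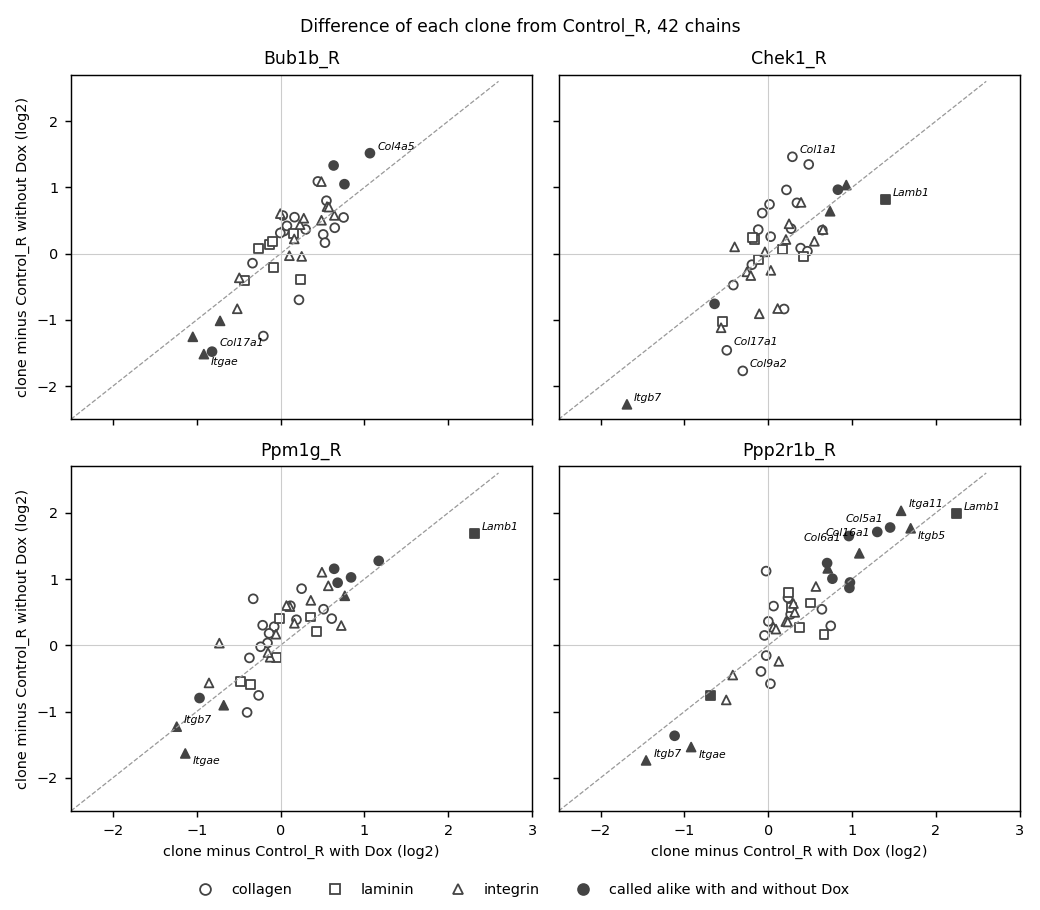
Log2 difference of each clone from Control_R with Dox (horizontal axis) and without Dox (vertical axis) for 42 chains, 1 panel per clone, with circles for collagens, squares for laminins and triangles for integrins; filled symbols were called in the same direction in both conditions, and the dashed line marks equal differences. Both axes subtract Control_R arrays. Lamb1 lies far out with and without Dox in Ppm1g_R (2.31 and 1.69) and Ppp2r1b_R (2.24 and 1.99), and Itgb7 lies low in all 4 panels.

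Lamb1, the beta chain of the embryonic laminin, had the largest difference from Control_R of the 47 genes with Dox. It read 5.64, 5.86 and 5.77 in Control_R, 8.12, 7.83 and 8.23 in Ppm1g_R and 7.82, 7.85 and 8.31 in Ppp2r1b_R. The arrays labelled as Chek1_R read 7.13, 6.90 and 7.43 and those of Bub1b_R 6.48, 5.94 and 5.55. Ppm1g_R and Ppp2r1b_R lay above the arrays labelled as Chek1_R, and these above Control_R, without overlap, whereas Bub1b_R overlapped Control_R. A lack of overlap with Control_R was common with Dox. It held for 48.8% of all probes in Bub1b_R, 56.8% in Chek1_R, 67.4% in Ppm1g_R and 61.6% in Ppp2r1b_R. The differences from Control_R were 2.31, 2.24 and 1.40, each ± 0.18 (adjusted p = 1.14e-10, 2.14e-10 and 8.56e-07), and 0.23 in Bub1b_R (adjusted p = 0.325). Without Dox they were 1.69, 1.99, 0.81 and -0.40, against higher Control_R values of 6.33, 6.13 and 6.37. Lama1 went the other way, at -0.54 and -0.69 with Dox and -1.03 and -0.75 without it for the arrays labelled as Chek1_R and Ppp2r1b_R, the first of them under 1.5-fold. Lamc1 was called in Ppp2r1b_R without Dox (0.64 ± 0.08, adjusted p = 1.87e-07), which was lost without Ppp2r1b_R replicate 2 without Dox (0.56). Lamb3 was called there too (0.79), and Lamb2 was called lower in Ppm1g_R (-0.59), which was lost without any of 4 arrays (-0.56 to -0.53).

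Itgb5, a partner of the vitronectin receptor chain Itgav, was called in 3 clones against Control_R and in none on withdrawal. It read 9.89, 9.81 and 9.76 with Dox in Control_R and 11.49, 11.63 and 11.44 in Ppp2r1b_R, with the other 3 clones between them and no overlap with Control_R. The difference of Ppp2r1b_R was 1.70 ± 0.09 with Dox and 1.76 ± 0.09 without it (adjusted p = 9.73e-14 and 2.45e-14). For the arrays labelled as Chek1_R it was 0.93 and 1.03, for Ppm1g_R 0.77 and 0.75, and for Bub1b_R 0.49 and 0.50, the last under 1.5-fold. Itga11 reached 1.58 with Dox and 2.03 without it in Ppp2r1b_R (adjusted p = 8.72e-11 and 5.72e-13). Itga3 reached 1.09 and 1.39 there. Itgb1 was called higher in all 4 clones without Dox, by 1.09 in Bub1b_R, 0.77 on the arrays labelled as Chek1_R, 1.10 in Ppm1g_R and 1.16 in Ppp2r1b_R, each ± 0.15. With Dox Itgb1 was called in Ppp2r1b_R (0.71), which was lost without Ppp2r1b_R replicate 3 with Dox (0.50), and was under 1.5-fold in the other clones. Itga6 was higher without Dox in Ppm1g_R (0.90) and Ppp2r1b_R (0.89).

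The lymphocyte chains Itgb7 and Itgae were lower than in Control_R. Itgb7 read 9.11, 9.00 and 8.88 in Control_R with Dox, and the highest of the 12 arrays of the other clones with Dox read 8.01. It was the 1 gene of the 47 called lower in all 4 clones with Dox, and the share of all probes called so was not counted. Its differences with Dox were -1.05 in Bub1b_R, -1.69 on the arrays labelled as Chek1_R, -1.24 in Ppm1g_R and -1.46 in Ppp2r1b_R, each ± 0.09. Without Dox they were -1.26, -2.27, -1.23 and -1.74 in the same order. For Itgae they were -1.52, -1.12, -1.63 and -1.54 without Dox. With Dox Itgae was called lower at -0.91, -1.14 and -0.92 in Bub1b_R, Ppm1g_R and Ppp2r1b_R. The leukocyte marker Laptm5 also differed from Control_R, by -0.73 in Bub1b_R, -1.02 on the arrays labelled as Chek1_R, -0.36 in Ppm1g_R and -0.63 in Ppp2r1b_R with Dox and by -1.06, -1.23, -0.42 and -0.67 without it, called lower in both conditions in all clones but Ppm1g_R, and Cd3e was called in no clone. Their part in the differences of Itgb7 and Itgae was not tested. Itgb4 was called lower than in Control_R in Bub1b_R in both conditions (-0.72 with Dox and -1.01 without it), on the arrays labelled as Chek1_R without Dox (-0.91), and in Ppm1g_R with Dox (-0.85).

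In all, 4 genes were called higher than in Control_R in all 4 clones without Dox: Col1a1, Col4a5, Col5a1 and Itgb1. Per clone 22.6% to 33.7% of all probes were called in this comparison. The share of all probes called in all 4 clones was not counted, so whether the counts given here are unusual cannot be said. Col5a1 was higher by 1.05 in Bub1b_R, 1.35 on the arrays labelled as Chek1_R, 0.94 in Ppm1g_R and 1.78 in Ppp2r1b_R, each ± 0.05. With Dox its differences were 0.76, 0.48, 0.68 and 1.45, all called but the second. Col4a5, of the collagen IV network of kidney and skin, was higher by 1.52, 0.61, 1.27 and 1.24 without Dox, in the same order, each ± 0.13, and was detected on 1 of 3 Control_R arrays there. Col1a1 was higher by 1.33, 1.46, 0.70 and 1.12 without Dox, each ± 0.21, and with Dox it was called in Bub1b_R (0.63). Without Control_R replicate 2 without Dox the call of Col1a1 in Ppm1g_R was lost (0.53), as was the call with Dox in Bub1b_R without Control_R replicate 3 (0.38) or Bub1b_R replicate 3 (0.53) with Dox. The call of Col4a5 on the arrays labelled as Chek1_R was lost without their replicate 1 (0.54) or without Control_R replicate 1 or 3 (0.56 each). For Col5a1 and Itgb1 no call without Dox was lost when an array was left out, while the mean of all probes of Itgb1 gave 0.55 on the arrays labelled as Chek1_R. The 5 genes called lower in all 4 clones without Dox were Col17a1, Itga2b, Itgae, Itgb7 and Itgb1bp2, the last of them lost in Ppp2r1b_R without Control_R replicate 3 without Dox (-0.58). Col17a1 had differences of -1.48, -1.46, -1.01 and -1.37, each ± 0.18. Col4a1 was called against Control_R on the arrays labelled as Chek1_R, where it was lower with Dox (-0.64) and without it (-0.76). In Ppp2r1b_R, Col16a1 (1.30 with Dox, 1.71 without), Col6a1 (0.96 and 1.65) and Col18a1 (0.97 and 0.87) were called higher in both conditions. Col3a1 without Dox was at least 1.53-fold higher in Ppm1g_R than in Control_R, where it was not detected.

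The 4 genes that share only the symbol were called nowhere on withdrawal. Itgb3bp, which encodes a centromere protein, was higher than in Control_R without Dox in Bub1b_R (0.88) and on the arrays labelled as Chek1_R (0.73). Itgb1bp1, a cytoplasmic partner of integrin beta chains, was lower in Ppm1g_R (-0.73) and Ppp2r1b_R (-0.76). Itgb1bp2, a muscle protein, was detected on 0 of 3 arrays of each of the 4 clones without Dox and was at least 1.20-fold to at least 1.39-fold lower than in Control_R. Col4a3bp was called in no comparison with Control_R.

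The wider pathway was read from 4 further lists, in which limma called no gene lower on withdrawal. Of all probes, 2.94% were called higher in Bub1b_R, 4.49% on the arrays labelled as Chek1_R, 2.3% in Ppm1g_R and 2.77% in Ppp2r1b_R. Of 14 matrix partners of collagen and laminin that passed, 0 were higher in Bub1b_R, 2 on the arrays labelled as Chek1_R, 1 in Ppm1g_R and 1 in Ppp2r1b_R. Bgn, a proteoglycan that binds collagen, rose by 1.53 and Tnc, an adhesion-modulating glycoprotein, by 1.42 on the arrays labelled as Chek1_R, while Fbn1 of the elastic microfibrils changed by 0.34 on average over the 4 clones, with no call. Of 15 genes for collagen synthesis and processing, 1, 2, 1 and 1 were higher in this order of clones. Bmp1, which cleaves the ends off procollagen, rose by 0.72 on the arrays labelled as Chek1_R and 0.63 in Ppm1g_R, and Serpinh1, the collagen chaperone, by 0.76 on the former. Loxl4, which crosslinks collagen, rose at least 1.4-fold in Bub1b_R, where it was not detected with Dox.

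Of 9 matrix proteases and their inhibitors, 0, 1, 5 and 1 were higher. Timp2, an inhibitor of matrix metalloproteases, rose by 0.70 on the arrays labelled as Chek1_R, 0.62 in Ppm1g_R and 0.74 in Ppp2r1b_R. Ppm1g_R also held Plau, the urokinase that activates plasmin (0.98), and Mmp14, a protease on the cell surface (0.63). Of 14 adaptors that tie integrins to actin, 1, 2, 1 and 1 were higher. Zyx, of focal adhesions, rose by 0.71 in Bub1b_R, 0.77 on the arrays labelled as Chek1_R and 0.67 in Ppm1g_R. Parva rose by 0.75 on the arrays labelled as Chek1_R, and Vcl, which reinforces the link to actin, changed by 0.41 on average without a call. In Control_R 0 genes of these 4 lists were called, where 1.1% of all probes were.

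Markers of other cell types moved on withdrawal beside the collagens and laminins. Of the 6 primitive streak and mesoderm markers, all of which passed, 6 rose in Bub1b_R, 6 on the arrays labelled as Chek1_R, 5 in Ppm1g_R, 3 in Ppp2r1b_R and 1 in Control_R. T rose by 2.43, Evx1 by 2.41 and Mixl1 by 2.15 on average over the 4 clones. Of 8 measured markers of primitive and parietal endoderm, cells that lay down laminin and type IV collagen, 4 rose in Bub1b_R, 1 rose and 1 fell on the arrays labelled as Chek1_R, 1 rose in Ppm1g_R, and 1 rose and 1 fell in Ppp2r1b_R. The mean log2 signal of the endoderm markers ranged from 6.51 to 6.55 with Dox and from 7.02 to 7.07 without it in Bub1b_R, from 6.50 to 6.61 and from 6.69 to 6.79 on the arrays labelled as Chek1_R, from 6.25 to 6.35 and from 6.37 to 6.59 in Ppm1g_R, and from 6.76 to 6.88 and from 6.88 to 6.97 in Ppp2r1b_R. In Control_R it ranged from 6.71 to 6.84 and from 6.84 to 6.95. The markers Foxa2, Cubn, Ttr, Afp, Thbd and Lrp2 were not among those measured. After removal of Dox the study reported, from an assay read by qRT-PCR, a rise of Fgf5, T and Mixl1 and none of its trophectoderm or endoderm markers. Those need not be the genes listed here. Its gene set analysis of array data, which also took in an Aurka clone, reported that genes of mesoderm and ectoderm were induced and those of endoderm were not. Of 5 measured trophoblast markers, 4, 4, 3 and 4 rose in the order Bub1b_R, Chek1_R, Ppm1g_R and Ppp2r1b_R, and 0 in Control_R. Beside them 2.94%, 4.49%, 2.3%, 2.77% and 0.706% of all probes rose. Whether these markers are particular to trophoblast was not tested. Of 7 markers of ES cell identity, 1, 1, 0 and 3 fell in that order, and of 4 endothelial markers 2, 2, 1 and 1. In Control_R 0 of either list fell. Of all probes, 2.67%, 4.77%, 2.07% and 2.05% fell in the same order of clones, and 0.396% in Control_R. The part of all these markers in the values of the collagen, laminin and integrin genes was not tested.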

How the data were processed

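RNA of 10 conditions was measured on 30 Illumina mouse BeadChip arrays, 3 per condition. The authors deposited, for each probe and array, a signal intensity that was background-subtracted within the array but not normalized between arrays, and a detection p-value. The submitters' processing notes name lumi, and the array software's settings are not given in the sources used here. No count of reads or molecules exists for arrays, so the number of arrays limits the precision.

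The intensities were normalized with neqc of limma 3.58.1 in R 4.3.3, which models the background by means of the detection p-values, then applies an offset of 16, quantile normalization and log2. Probes with a detection p-value under 0.05 on at least 3 arrays were kept (15151). A single linear model with 10 condition means, on all 30 arrays, gave each contrast, with moderated variances (20 residual and 3.38 prior degrees of freedom) and Benjamini-Hochberg adjustment over all kept probes. The model was tested on simulated data. Where a gene was detected on no array of a condition, the fold is a lower bound from each array's lowest detected signal. Plots and tables were made in Python 3.11.15 with pandas 2.3.3 and matplotlib 3.10.9.

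Named genes are the main basement membrane, integrin and fibroblast chains whatever their values, the up to 6 called genes with the largest change per clone, the 5 with the largest difference from Control_R without Dox, the up to 3 with the largest change relative to Control_R, the targeted genes, and the 3 with the largest mean change of each further list. Itgb4, Itga2b, Lamb2, Lamb3, Col9a1, Itga1 and Itgb2 were named after their values had been seen. The members and lists were chosen with earlier results of these data known. Other offsets, background corrections, normalizations, probe choices, filters, tests, a replicate block and the omission of each array were tried. A gene of the set, also left out of the plots, and some markers are not reported here.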

Additional observations from a re-analysis of the deposited data

Results flagged for a closer look

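The change on withdrawal of Dox differed from that in Control_R, by the interaction term of the limma model and at least 1.5-fold, in 23 cases, given here as log2 differences. In Bub1b_R these were Col23a1 (0.64), Col2a1 (-0.92), Col9a2 (-1.04) and Itgae (-0.60). On the arrays labelled as Chek1_R, where Chek1 itself goes against the label, Col1a1 (1.17), Col5a1 (0.86), Col6a1 (0.74), Col23a1 (0.73) and Col4a5 (0.68) lay above the change in Control_R, and Col9a2 (-1.47), Col2a1 (-1.02), Col17a1 (-0.96), Itga2b (-0.94), Itgb4 (-0.80), Itgb1bp2 (-0.72) and Itgb7 (-0.59) below it. In Ppm1g_R they were Col1a1 (1.03), Itga11 (0.76) and Col7a1 (0.60). In Ppp2r1b_R they were Col1a1 (1.14), Col6a1 (0.69), Itgae (-0.62) and Col2a1 (-0.61). All share the Control_R arrays, so a Control_R array that stands apart moves all of them. Col2a1 is the case in which Control_R itself moved most, by 0.42 in the opposite direction, although a second probe of Col2a1 moved there by 0.21.

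The change also differed among the 4 clones, by the F-test over their withdrawal contrasts, for 18 genes. The adjusted p was lowest for Col9a2 (2.36e-09) and Itgb4 (3.31e-09), followed by Col5a1 (1.11e-06), Col4a1 (7.35e-06), Itga3 (8.06e-06), Col6a1 (0.000108) and Lama1 (0.000391). It was 0.00119 for Col18a1, 0.00132 for Col7a1, 0.00246 for Lamb3, 0.00296 for Itga11, 0.00546 for Itgb3bp and 0.00598 for Col4a2. It was 0.0116 for Itgb7, 0.0219 for Col16a1, 0.0281 for Col3a1, 0.0365 for Lama2 and 0.0469 for Col4a3bp. The F-test has no minimum fold, and 24% of all probes passed it.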

How the results depend on the processing

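Of the 27 calls on withdrawal, 11 were kept under every alternative and every omitted array, and 18 under every omitted array. No called value changed sign under any alternative that was run. An offset of 50 instead of 16, which shrinks the differences of dim genes by construction, lowered the number of genes called on withdrawal to 2 in Bub1b_R, 7 on the arrays labelled as Chek1_R and 2 in Ppp2r1b_R, the number against Control_R with Dox to 7 in Bub1b_R, 5 on the arrays labelled as Chek1_R and 10 in Ppm1g_R, and without Dox to 11 in Bub1b_R and 15 on the arrays labelled as Chek1_R. Relative to Control_R it left 2 in Bub1b_R, 1 in Ppm1g_R and 2 in Ppp2r1b_R. Averaging every probe of a gene gave 3 on withdrawal in Bub1b_R, median scaling 3 and a Student t-test per probe 2 in Ppp2r1b_R, and no background correction 1 in Control_R. Relative to Control_R, Ppp2r1b_R held 2 under median scaling and 1 in a fit of only the arrays compared. The cause was not tested for these.

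With each array left out in turn, withdrawal gave 5 to 7 genes in Bub1b_R, 10 to 13 on the arrays labelled as Chek1_R, 4 to 6 in Ppm1g_R, 3 to 6 in Ppp2r1b_R and 0 to 1 in Control_R. The 3 arose without Ppp2r1b_R replicate 1 with Dox or replicate 2 without it, and the 1 without Control_R replicate 2 without Dox. Relative to Control_R the ranges were 2 to 5, 9 to 13, 1 to 4 and 2 to 5 (Bub1b_R, Chek1_R, Ppm1g_R, Ppp2r1b_R). The 2 in Bub1b_R came without its replicate 1 with Dox, Control_R replicate 2 with Dox or Control_R replicate 1 without it, the 1 in Ppm1g_R without its replicate 3 with Dox, its replicate 2 without Dox or Control_R replicate 1 with Dox, and the 2 in Ppp2r1b_R without Control_R replicate 1 with Dox. Against Control_R the ranges were 11 to 14, 8 to 10, 14 to 17 and 18 to 22 with Dox and 18 to 21, 21 to 24, 20 to 27 and 25 to 29 without it, and 16 to 19 genes passed the F-test.

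Arrays with the same replicate number showed little common deviation (correlations from -0.08 to 0.13). Such low correlations over all probes do not settle whether the numbers pair arrays. With the replicate number as a block 17 genes passed the F-test instead of 18, and the number called changed in no other comparison. Genes near the detection limit (11 of 47 detected on under 15 arrays) have compressed differences.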
